A study of Mus musculus with 4 samples.

Results

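The 9 genes described here are interferon regulators and antiviral genes, chosen by name from the 55421 gene identifiers of the deposited count table. They comprise the interferon regulatory factors Irf1, Irf3, Irf7 and Irf9, the transducer Stat2, the cytosolic RNA sensor Ifih1, and the antiviral genes Oasl2, Ifit1 and Isg15. Transcripts were measured in E14, a mouse embryonic stem cell line of blastocyst origin and 129/Ola background, grown on gelatin with serum and the cytokine LIF. The groups were cells that lack the microRNA cluster miR-290-295 (KO, n = 2) and their wild-type counterparts (WT, n = 2), with 1 library per replicate. Nothing in the sources used here says that an interferon, a virus or synthetic RNA was given to any group. Whether the KO replicates are different clones is not stated there either, and the p-values reflect only how far these libraries spread, which may be technical. All levels are counts per 1000000 counts of the library (CPM) in 3' tag libraries, where a transcript gives reads near its poly(A) end whatever its length.

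In the textbook pathway, RIG-I-like receptors such as MDA5, the product of Ifih1, bind double-stranded RNA in the cytosol and signal through the mitochondrial adaptor MAVS to IRF3 and IRF7, which switch on interferon genes. Secreted type I interferon then binds its receptor, and STAT2 and IRF9 act in a complex that binds the interferon-stimulated response element (ISRE) of antiviral genes. Mouse pluripotent stem cells are known for a weak interferon response, and IRF1 can drive antiviral genes without interferon.

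In KO cells Irf1 rose 3.65-fold, from 27 ± 7.32 CPM to 97.8 ± 4.45 CPM (SD, n = 2), and Irf9 rose 2.14-fold, from 12.5 ± 0.127 to 26.7 ± 1.93. Oasl2 and Ifit1, with 0 counts in both WT libraries, also rose. Irf3 and Stat2 were not called. Irf7, Ifih1 and Isg15 were too low to be tested. These results come from edgeR's quasi-likelihood test with Benjamini-Hochberg adjustment over 14427 genes, called at an adjusted p below 0.05. Of all genes tested, 7.42% were called higher and 4.96% lower. DESeq2 called 1096 of 14389 genes higher and 714 lower. The share of all genes with an unadjusted p under 0.05 was not computed, so counts at that threshold have no background here. Of the 9 genes, 6 passed the low-count filter, with 4 called higher and 0 lower (0 lower also at an unadjusted p under 0.05 and with DESeq2, which called 3 higher). Oasl2 and Ifit1 passed that filter through the KO libraries alone, so they had to differ, and the count of 4 is a description.

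**Figure D1:**
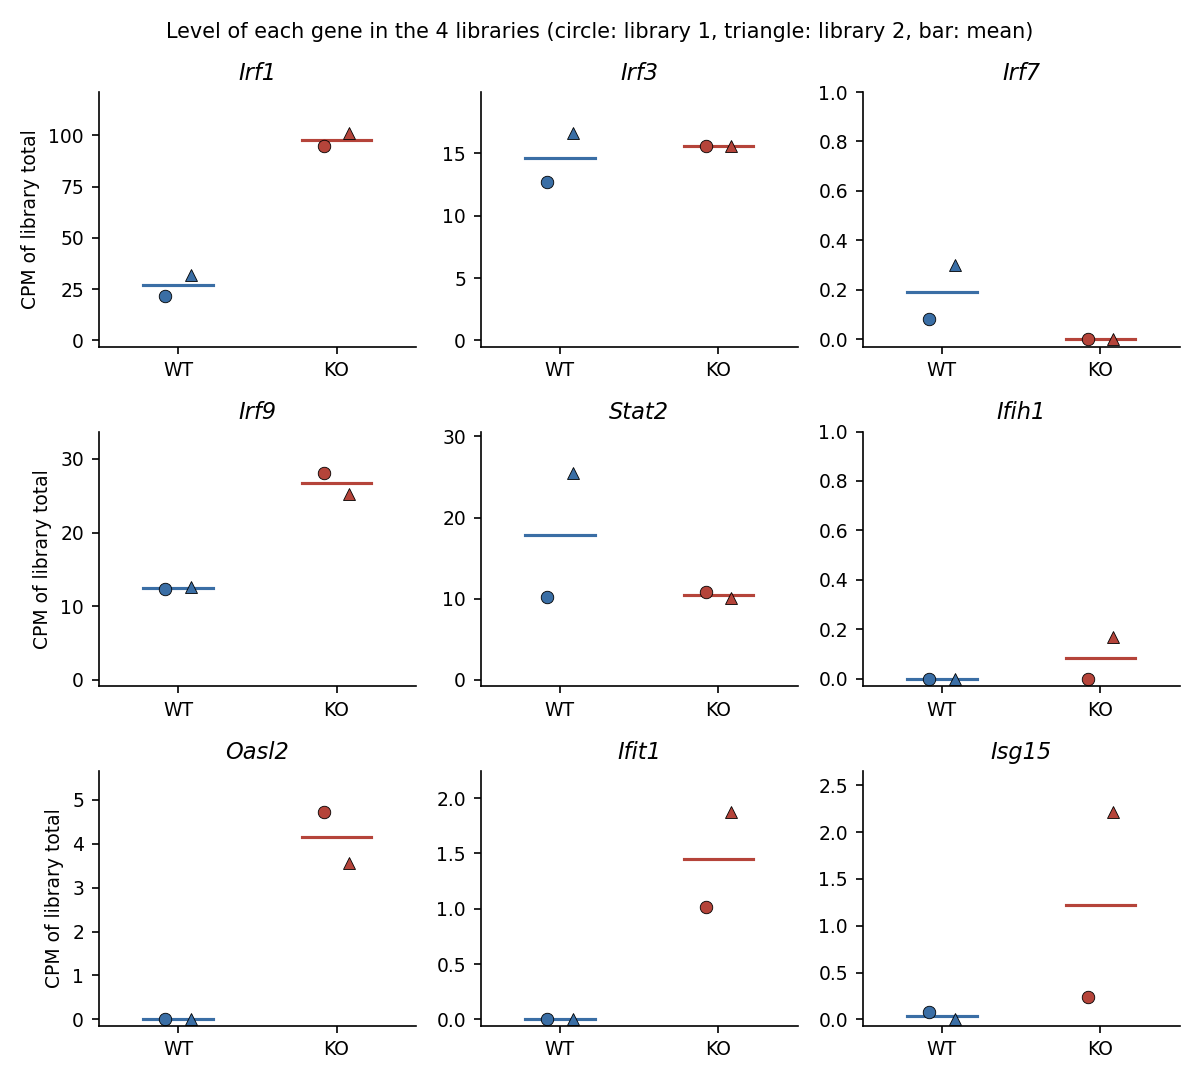
CPM of the library total (vertical axis, linear, own scale in each panel) of the 9 genes in the WT and KO libraries, with circles for library 1, triangles for library 2 and bars for the group mean. Irf1, Irf9, Oasl2 and Ifit1 lie higher in both KO libraries than in both WT libraries, and WT library 2 stands apart for Stat2.

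The sequences shown for these genes are a seed shared by several of the lost microRNAs, its matches in the 3' UTRs and the ISRE-like stretches before the start sites. The mature microRNAs miR-291a-3p, miR-294-3p and miR-295-3p of the cluster share the seed AAGUGCU (bases 2 to 8, in capitals; RefSeq, GRCm38.p6), and they are shown because their loss defines the KO cells.
miR-291a-3p: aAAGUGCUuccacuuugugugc
miR-294-3p: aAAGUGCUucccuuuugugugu
miR-295-3p: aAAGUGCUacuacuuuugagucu

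A 3' UTR that pairs with this seed holds AGCACTT, or GCACTTA where an A follows the shorter match. Other mature microRNAs of the cluster have other seeds. Those of miR-290a-3p (AAGUGCC) and miR-291b-3p (AAGUGCA) share the letters AAGUGC, so GCACTT and GCACTTA match them too. Matches to all 7 letters of these 2 seeds, and to unlike seeds such as that of miR-293-3p, were not searched. The longest annotated 3' UTR (GENCODE vM21) of 4 of the 9 genes held a 7-base match, against 21.8% of 12496 tested genes with a 3' UTR. In the longest 3' UTR of protein-coding transcripts, an alternative chosen after seeing the data, 3 did (Irf9, Stat2 and Oasl2), against 20.9% of genes. The match of Irf7 lay only in a transcript annotated for nonsense-mediated decay. Oasl2 carried the 8-base form AGCACTTA, which 3.57% of tested genes have, and Irf9 carried 2 matches of 7 bases within a 3' UTR of 999 bases. The windows below show these matches with the matched letters in capitals, read from the annotated transcripts, 5′ to 3′. The last A of the Oasl2 match belongs to the 8-base form and does not pair with the seed.
Irf9, first match: cttgtaatctcAGCACTTggaagacagacc
Irf9, second match: ctctaaatctaAGCACTTtatatattttat
Oasl2: gcctttatctcAGCACTTAgagaatttctg
Stat2: aatggtttctgAGCACTTgggaattactcc

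Ifit1 and Ifih1 held only the 6-base GCACTT, which 34.8% of tested genes have. Irf1 held it in 2 of 3 protein-coding transcripts with a 3' UTR, which is not the longest one, and Irf3 and Isg15 held no match to this seed. So the 3' UTRs with 7-base matches belong to genes that rose (Irf9 and Oasl2) and to one that was not called (Stat2), and Irf1, which rose, had the 6-base match at most. A match describes letters in a 3' UTR and does not show that a microRNA binds there.

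Promoters were searched for GAAANNGAAA, an ISRE-like motif, on both strands over the 250 bases before the RefSeq start site (GRCm38.p6). For Irf9 the searched bases lie inside the gene as annotated by GENCODE, and those before its GENCODE start were not searched. All 9 genes had a RefSeq promoter. The motif occurred in 3 of them, Ifit1, Isg15 and Stat2, and in 3.46% of 27025 genes with a promoter. They are shown as the letters through which STAT and IRF complexes are known to bind antiviral genes, with the motif in capitals.
Isg15, chr4:156200830-156200941, minus strand: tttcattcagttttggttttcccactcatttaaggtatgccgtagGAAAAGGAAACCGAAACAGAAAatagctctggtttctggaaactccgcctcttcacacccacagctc
Ifit1, chr19:34640740-34640858, plus strand: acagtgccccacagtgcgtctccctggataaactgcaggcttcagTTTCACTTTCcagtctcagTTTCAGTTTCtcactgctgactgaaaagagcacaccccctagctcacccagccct
Stat2, chr10:128270248-128270347, plus strand: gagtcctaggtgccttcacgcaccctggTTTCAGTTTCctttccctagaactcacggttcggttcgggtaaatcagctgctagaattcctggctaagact

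The Isg15 promoter held 3 overlapping matches, which begin 78, 72 and 66 bases before its start site. Ifit1 held 2, at 104 and 85 bases before it on the opposite strand, and Stat2 held 1 at 222. With the window extended to 50 bases after the start site, Ifih1 also held a match, and 3.99% of genes had one. The second motif searched was TTCNNNGAA, the palindromic STAT dimer (GAS) motif, found in 8.13% of genes. Among the 9 genes it occurred before Irf1 alone, a gene known to be induced by interferon gamma.
Irf1, chr11:53769899-53769957, plus strand, GAS-like motif in capitals: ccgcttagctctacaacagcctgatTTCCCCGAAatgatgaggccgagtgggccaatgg

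**Figure D2:**
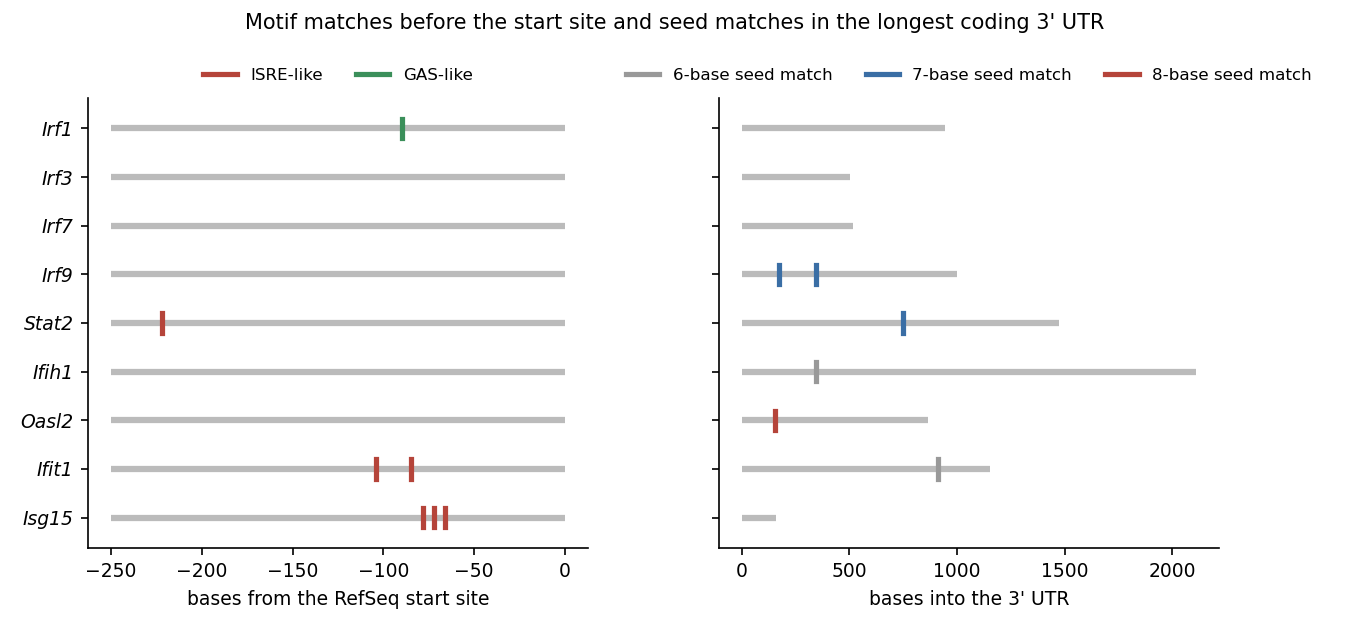
Left, ISRE-like and GAS-like matches along the 250 bases before the first RefSeq start site of each gene (horizontal axis in bases). Right, 6-, 7- and 8-base seed matches along the longest 3' UTR of its protein-coding transcripts (bases from the stop codon). Isg15 has 3 ISRE-like matches and no match to the searched seed, while Irf9 has 2 seed matches of 7 bases. Irf9 has no match before its first RefSeq start site, but that window lies inside the gene as annotated by GENCODE.

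Irf1 (ENSMUSG00000018899, chromosome 11, 53770014 to 53778374, plus strand) encodes a transcription factor of antiviral and interferon gamma responses. It had 94.7 and 101 CPM in KO libraries 1 and 2 (1205 and 1188 counts), and 21.8 and 32.1 CPM in WT libraries 1 and 2 (265 and 319 counts). Both KO libraries lay above both WT libraries, as they did for 29.2% of tested genes (28.8% lay the other way round), and the KO pair was close together. Its log2 fold change (KO over WT) was 1.87 (SE 0.21, edgeR adjusted p = 0.00107). With 1 library left out it lay between 1.62 and 2.15 and stayed called. Gm17334, a gene on the opposite strand inside Irf1, had 0 counts in every library.

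Irf9 (ENSMUSG00000002325, chromosome 14, 55603571 to 55610030, plus strand) encodes a DNA-binding factor that acts in a complex with STAT2. Its values were 28.1 and 25.3 CPM in KO (357 and 298 counts) and 12.4 and 12.6 CPM in WT (151 and 125 counts). The WT libraries were nearly equal and both KO libraries lay above them. The log2 fold change was 1.10 (SE 0.22, edgeR adjusted p = 0.0154). The call was lost when KO library 1 was left out (1.03, adjusted p = 0.101), and likewise for KO library 2 (1.17, adjusted p = 0.0533), where the lone KO library is assumed to vary like the WT pair. Rnf31, which ends 123 bases inside the start of Irf9 on the same strand, had at most 28 counts and did not pass (log2 fold change -0.67, SE 0.49).

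Stat2 (ENSMUSG00000040033, chromosome 10, 128270559 to 128292849, plus strand) encodes the partner of IRF9 in that complex. It had 10.8 and 10.1 CPM in KO and 10.2 and 25.5 CPM in WT, as 137, 119, 124 and 253 counts. WT library 2 was high, and WT library 1 lay between the KO libraries. The log2 fold change was -0.76 (SE 0.38, 95% interval -1.62 to 0.11, edgeR adjusted p = 0.235). Without WT library 1 it was -1.27 and called lower (adjusted p = 0.00531), and without WT library 2 it was 0.02 (adjusted p = 0.982), so WT library 2 sets its direction.

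Irf3 (ENSMUSG00000003184, chromosome 7, 44997648 to 45002848, plus strand) encodes the constitutive factor that RNA sensors activate by phosphorylation. It had 15.6 CPM in each KO library and 12.7 and 16.6 CPM in the WT libraries (198, 184, 155 and 165 counts). The WT libraries spanned the KO values. The log2 fold change was 0.09 (SE 0.25, 95% interval -0.47 to 0.66, edgeR adjusted p = 0.849), and without WT library 1 it was -0.07. A change of any size within that interval is compatible with these libraries. Bcl2l12, which overlaps the start of Irf3 on the opposite strand by 1065 bases, did not pass either (0.27, SE 0.35), nor did Scaf1, which lies 100 bases past its end (-0.30, SE 0.34).

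**Figure D3:**
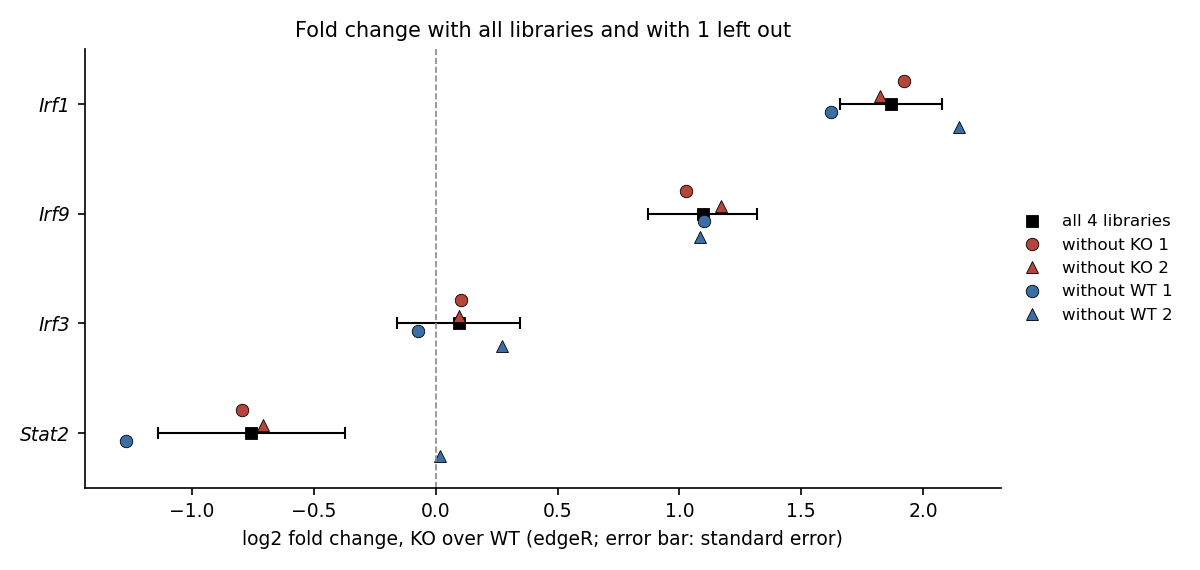
Log2 fold change, KO over WT (horizontal axis), of Irf1, Irf9, Irf3 and Stat2 with all 4 libraries (squares, with the standard error) and with each library left out (circles and triangles). Irf1 lies between 1.62 and 2.15 and Irf9 between 1.03 and 1.17, while Stat2 runs from -1.27 to 0.02 with the WT library that is left out.

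Irf7 (ENSMUSG00000025498, chromosome 7, 141262706 to 141266481, minus strand), the factor that amplifies interferon production, was nearly silent in both groups. It had 0 counts in both KO libraries and 1 and 3 counts in WT, which give 0.181 CPM over the WT group (95% Poisson interval 0.0493 to 0.464). The 0 in KO allows up to 0.122 CPM over the group, taking 3 counts as the floor, so a difference was not detectable at this depth. Phrf1, whose 3' end overlaps that of Irf7 by 45 bases on the opposite strand, had 1159 to 1502 counts. Ifih1 (ENSMUSG00000026896, chromosome 2, 62595798 to 62646255, minus strand) had 2 counts in KO library 2 and 0 in the other libraries, below the floor in both groups.

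Oasl2 (ENSMUSG00000029561, chromosome 5, 114896936 to 114912234, plus strand) encodes an oligoadenylate synthetase-like antiviral protein. It had 60 and 42 counts in KO (4.71 and 3.57 CPM) and 0 in both WT libraries. Against the floor of 3 counts over the WT group (0.136 CPM) it was 30.7-fold higher in KO, without allowance for counting error in KO (edgeR adjusted p = 0.00242). It stayed called with any 1 library left out, but it passed the low-count filter through the KO libraries alone. Its direction was thus fixed, and these calls are a description. The paralog Oasl1, which starts 11006 bases past its end, also rose, from 8 and 4 counts in WT to 40 and 72 in KO (log2 fold change 3.08, SE 0.60, adjusted p = 0.0128). That call was lost without KO library 2 (2.53, adjusted p = 0.0884). Such paralogs can share reads, and how the authors treated these is not given in the sources used here. KO library 1 was the higher one for Oasl2 and the lower one for Oasl1.

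Ifit1 (ENSMUSG00000034459, chromosome 19, 34640871 to 34650009, plus strand) encodes a protein that binds viral RNA lacking a normal cap methylation. It had 13 and 22 counts in KO (1.02 and 1.87 CPM) and 0 in both WT libraries. It was 10.5-fold higher in KO against the same floor, again without allowance for counting error in KO (edgeR adjusted p = 0.0143). With KO library 2 left out it was too low to be tested, and it stayed called in the other fits with 1 library left out. Ifit1 also passed the low-count filter through the KO libraries alone, so these calls are a description too. Its neighbour Ifit2, another member of the family, had 7 and 18 counts in KO and 4 and 5 in WT, which did not pass the filter.

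Isg15 (ENSMUSG00000035692, chromosome 4, 156199424 to 156200818, minus strand) encodes a ubiquitin-like modifier. Its KO libraries held 3 and 26 counts (0.236 and 2.21 CPM), and its WT libraries 1 and 0. Over the groups the ratio was 26.2, with a counting interval from 4.34 to 1070 (95%, exact binomial), and most of it came from KO library 2, whose level was 9.37 times that of KO library 1. Isg15 was removed by the filter. Without the filter it was called higher (log2 fold change 4.46, adjusted p = 0.00303), and so it was when KO library 1 was left out (5.32, adjusted p = 0.0221). With either WT library left out it was tested and not called (adjusted p = 0.0946 for library 1 and 0.146 for library 2), and without KO library 2 it was again too low to be tested. The enzymes that attach ISG15 (Uba7, Ube2l6 and Herc6) and the protease that removes it (Usp18) had at most 15 counts in any library and were not tested.

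By level, the order in KO was Irf1, Irf9, Irf3, Stat2, Oasl2, Ifit1, Isg15, Ifih1 and Irf7. In WT it was Irf1, Stat2, Irf3, Irf9 and then Irf7, with the others at or near 0. In WT the libraries of Stat2, Irf3 and Irf9 overlapped or lay within their spread, so their order there is not resolved. In KO those of Ifit1 and Isg15 overlapped. The 4 most abundant genes in both groups were thus regulators, and the antiviral genes stayed below 5 CPM in every library.

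The rest of the pathway was described with lists of sensors, factors, ligands, receptors and interferon-stimulated genes. Of 128 other genes listed, 74 were tested, 15 were higher (20.3%) and 1 was lower (1.35%). Of all genes tested 7.42% were higher and 4.96% lower, which is also the background for each list below. The lists were chosen with earlier results of these data known, so these counts are a description. The median log2 fold change of the 74 genes was 0.26 (0.17 without 7 genes that passed the low-count filter through the KO libraries alone), and that of all genes tested was -0.01. Interferon transcripts were nearly absent from the counts: of 20 interferon genes, 19 had 0 counts in every library and Ifnab had 1. Many of these 20 are paralogs that can share reads, and how such reads were treated is not given in the sources used here. All 6 receptor genes were tested and 0 were called by edgeR or by DESeq2. The type I receptor genes Ifnar1 (0.10, 95% interval -0.52 to 0.71) and Ifnar2 (-0.45, 95% interval -1.33 to 0.42) lay on either side of 0. The 2 receptor genes with an unadjusted p under 0.05 were those of interferon gamma, Ifngr1 (0.86, edgeR adjusted p = 0.125) and Ifngr2 (0.90, adjusted p = 0.139). Of 5 JAK-STAT genes 0 were called, among them Jak1 (-0.04, SE 0.16) and Tyk2 (-0.16, SE 0.21), kinases of the type I receptor, and of 13 tested negative regulators 0 were called. At an unadjusted p under 0.05 there were 1 of the JAK-STAT genes (higher) and 3 of the negative regulators (1 higher, 2 lower), and DESeq2 called 0 in either list.

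Of 16 tested sensors and adaptors 4 were higher and 0 lower (median 0.18), with 1 lower at an unadjusted p under 0.05 and 1 lower with DESeq2. The gene lower at an unadjusted p under 0.05 was Trim25, with 213 and 196 CPM in WT and 121 and 154 in KO. Its log2 fold change was -0.57 (SE 0.17, edgeR adjusted p = 0.0538). Mavs, the adaptor below MDA5, rose from 29.3 and 30.5 CPM in WT to 66 and 55.9 in KO (log2 fold change 1.03, SE 0.19, edgeR adjusted p = 0.00928). Rnf135, a ubiquitin ligase of the RIG-I pathway, rose by 2.25 (SE 0.33, adjusted p = 0.00344). Zbp1, a sensor of Z-form nucleic acid, rose by 2.74 (SE 0.61) and Aim2, a DNA sensor of inflammasomes, by 1.54 (SE 0.40). The RIG-I gene Ddx58 was not called (-0.03, SE 0.35). Mavs lost its call without KO library 1 (0.91, adjusted p = 0.0772), and Zbp1 (2.04, adjusted p = 0.167) and Aim2 (1.33, adjusted p = 0.0545) without KO library 2. The Zbp1 value was 3.34 with WT library 1 dropped and 2.35 with WT library 2 dropped. Leaving out WT library 1 moved Aim2 to 0.96 and leaving out WT library 2 moved it to 2.496, and it was not called by DESeq2 (adjusted p = 0.164).

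Among the other IRF genes and their binding partners, 1 of 6 was higher and 1 lower. Irf2bp2, which encodes a corepressor that binds IRF2, rose from 25.5 and 31 CPM in WT to 101 and 109 in KO (1.90, SE 0.18, edgeR adjusted p = 0.000506). Irf8, an IRF of blood cells, fell by 2.08 on the log2 scale (SE 0.48, adjusted p = 0.0245), from 48 and 72 counts in WT to 16 in each KO library. Irf8 lost its call when any library but WT library 1 was left out (-2.01 and -2.13 for the KO libraries, -1.605 for WT library 2).

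Of 28 other interferon-stimulated genes tested, 10 were higher and 0 lower, with a median of 0.90, and 23 more were too low to be tested. At an unadjusted p under 0.05, 18 were higher and 0 lower, with no share over all genes computed. DESeq2 called 8 of these interferon-stimulated genes higher and 0 lower, and 1096 higher and 714 lower among 14389 genes. Of the 28, Oasl1, Gbp2, Ddx60, Rsad2, Ifi27, Irgm1 and Lgals3bp reached the filter's 0.836 CPM in the KO libraries alone. They had to lie higher in KO, and all of them are among the 18. Among the other 21 genes 7 were higher and 0 lower, with a median of 0.50. Ifitm1 and Ifitm3 encode membrane proteins that block viral entry. Ifitm1 rose from 120 and 75 CPM to 443 and 351 (2.02, SE 0.23, edgeR adjusted p = 0.00118), and Ifitm3 from 346 and 144 to 719 and 764 (1.59, SE 0.33, adjusted p = 0.0161). Dtx3l and Parp9, whose products act as a pair of ubiquitin ligase and ADP-ribosyltransferase, rose by 1.66 (SE 0.24) and 1.59 (SE 0.28), and Parp14 by 1.51 (SE 0.29). Oasl1 is described above with Oasl2. Dropping WT library 1 raised the Ifitm3 value to 2.38, while dropping WT library 2 lowered it to 1.08. DESeq2 did not call Ifitm3 (adjusted p = 0.0673). Parp14 lost its call when KO library 1 was dropped (1.402). The other 4 higher genes were Oas2, Zc3hav1, Gbp2 and Ddx60, named after their values were seen, and each lost its call in at least 1 fit with a library left out. Gbp2 (0 counts in both WT libraries, 13 in each KO library) was 7.82-fold higher against the floor used for Oasl2, without allowance for counting error in KO. The 18 genes that were not called ran from -1.13 (Trim21) to 2.18 (Rsad2), with Bst2 at -0.57 (SE 0.27), Ifitm2 at 0.05 (SE 0.16), Eif2ak2 at 0.31 (SE 0.27), Parp12 at 0.90 (SE 0.27) and Irgm1 at 1.90 (SE 0.59). Mx1 had at most 1 count in any library.

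**Figure D4:**
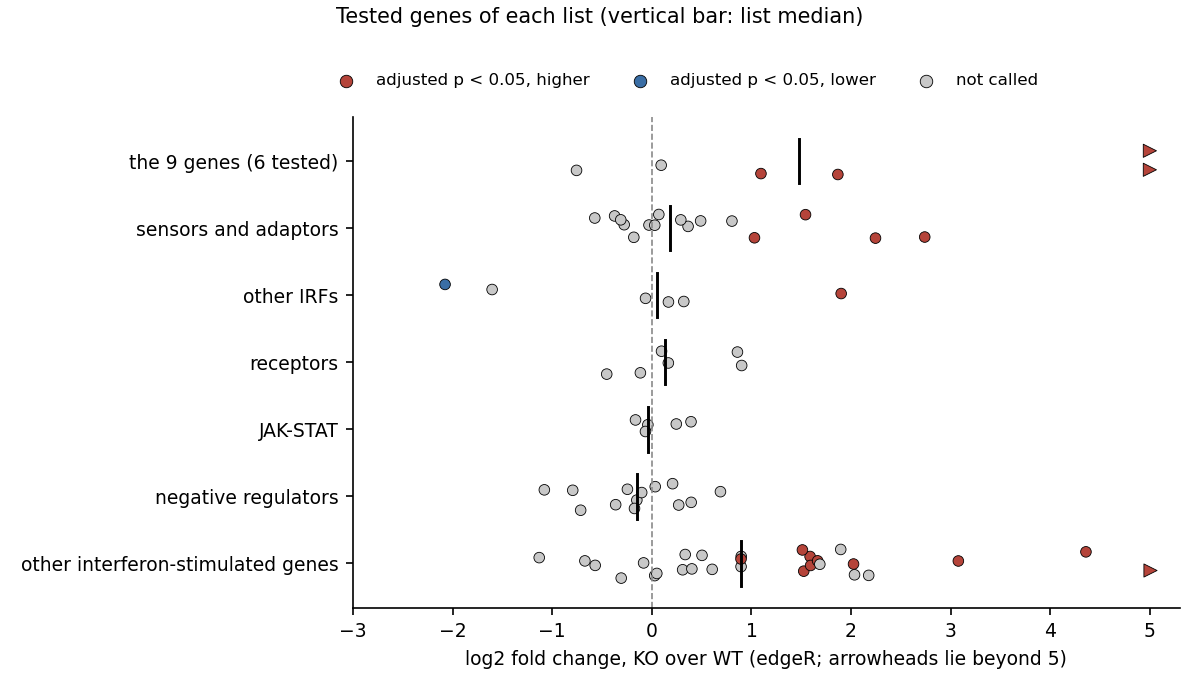
Log2 fold change, KO over WT (horizontal axis), of the tested genes of each list, with called genes in red (higher) or blue (lower), other tested genes in grey, the list median as a bar and values beyond 5 as arrowheads. The other interferon-stimulated genes have a median of 0.90, or 0.50 without the 7 that passed the filter through the KO libraries alone, and receptors (0.13), JAK-STAT genes (-0.04) and negative regulators (-0.15) hold no such gene.

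The ISRE-like motif was found in 18 of 38 other interferon-stimulated genes with a promoter in the table (47.4%), in 11 of 19 interferon genes, in 1 of 15 sensors and adaptors, and in 0 of 5 receptor genes. Of the 4 members that rose, Ifit1 had it and Irf1, Irf9 and Oasl2 did not within this window, which for Irf9 lies inside the GENCODE gene. A 7-base seed match lay in the longest 3' UTR of 3 of the 15 listed genes that rose (Rnf135, Irf2bp2 and Dtx3l), of 13 of the 58 that were not called, and of 0 of the 1 that fell.

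The genes with the profile most like Irf1 over the 4 libraries, by the distance between centred log2 CPM among 10360 genes, were Spaca6 (0.09), Irf2bp2 (0.20) and Tmem156 (0.21). For Oasl2 the same measure gave Gna14 (0.08), Pax6 (0.33) and Ccnd2 (0.47), but its log2 CPM in the WT libraries, where it has 0 counts, is set by the prior count of 2, and these distances with it. Of the 18 nearest genes with counts on either side of the 9 genes, 16 were tested and 3 were higher, against 7.42% of all genes tested. The 3 were Psme2, 12458 bases from Irf9 (1.15, SE 0.21), Oasl1, and Dpp4, 183567 bases from Ifih1 (1.71, SE 0.18).

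As a check of the labels, the 7 plus-strand microRNA genes of the cluster held 88 and 39 counts in the WT libraries and 0 in both KO libraries (95% Poisson upper bound 3.69 counts). Library totals ran from 9925557 to 12726123 counts. Stem cell markers were high in all libraries (8 summed, 3130 to 3530 CPM), with 1 of 8, Klf4, lower in KO. Blood and macrophage markers summed to 12.3 and 16.1 CPM in KO and 12.2 and 14 in WT, mostly Cd68. Of these, Adgre1 was at 0 in every library, and Ptprc, Csf1r, Lyz2 and Tyrobp had at most 4 counts. Of 5 primitive endoderm markers 4 were lower in KO (summed 6.54 to 8.49 CPM, against 53.1 to 59.6 in WT). Of 6 fibroblast markers the 2 that were tested were lower, and the list summed to 10.2 to 20.7 CPM in KO and 28.9 to 51.9 in WT. Most of that was Thy1 (9.82 and 20.3 CPM in KO, 26.8 and 50.2 in WT), and Col1a1, the other tested marker, had at most 21 counts. Col3a1, Postn and Dcn were at 0 throughout. The trophoblast marker Tfap2c was higher, and the 4 markers of that list summed to 236 to 387 CPM in KO and 92.2 to 100 in WT. That sum was mostly Tfap2c (379 and 230 CPM in KO, 89.7 and 88.1 in WT). Eomes was not called (log2 fold change -0.12, SE 0.60), and Cdx2 and Elf5 were too low to be tested. The part of these marker differences in the results was not tested, and in bulk samples a change in the number of cells of a type and in RNA per cell cannot be told apart.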

How the data were processed

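The authors deposited raw counts, whole numbers per Ensembl gene and not normalized, in 1 table for poly(A) RNA libraries made with the QuantSeq 3' FWD kit, per the labels' protocols. The submitters' processing notes name Trim Galore and GRCm38. The sources used here give no aligner, counting program, strand setting or annotation release, so reads of overlapping genes and paralogs may be split in unknown ways. GENCODE vM21 named 55154 identifiers, and the 267 without a name held 0.0118% of counts.

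KO and WT, grouped by sample title, were compared with edgeR 4.0.16 in R 4.3.3 (TMM, filterByExpr, quasi-likelihood F test, two-sided, Benjamini-Hochberg over 14427 genes, threshold 0.05). Standard errors are the log2 fold change over the square root of F. A group or library at 0 is set against a floor of 3 counts. Without molecular identifiers, reads need not be separate molecules, so intervals and floors describe counting error alone. Levels use library totals, and fold changes use TMM. Named genes are the 9 genes, up to 6 called genes per list by smallest p, overlapping and neighbouring genes, and the nearest profiles of the 2 genes with the smallest p. List genes named without a call, and Gbp2, Ddx60, Oas2 and Zc3hav1, fall outside this rule and were picked with their values in view. The 9 genes and the lists were chosen with earlier results of these data known. The alternatives were DESeq2 1.42.0 (size factors or test), library totals, other filters, the replicate number as a block, each library left out, and other promoter windows and 3' UTRs. Scripts were tested on simulated data.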

Additional observations from a re-analysis of the deposited data

How the results depend on the processing

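Irf1 stayed called under all alternatives run, and Oasl2 and Ifit1 under each that tested them (DESeq2 gave Ifit1 no adjusted p). Oasl2 and Ifit1 passed the low-count filter through the KO libraries alone, so their direction was fixed in the fits that use it. With 1 library left out, Irf9 lay between 1.03 and 1.17 and lost its call without either KO library, Irf3 lay between -0.074 and 0.273, and Stat2 between -1.269 and 0.016. The number of the 9 genes called higher was 4, and 2 with a mean CPM of at least 10, where Oasl2 and Ifit1 are not tested. Leaving out genes that passed the filter through 1 group alone, chosen after seeing the data, also left 2, and 12 of the other listed genes. With 1 library left out it lay between 2 and 4, and the number called lower between 0 and 1. Of the other listed genes 15 were called higher, 8 under that CPM minimum, and between 8 and 19 with 1 library left out. The number called lower was 1, and it was 2 with DESeq2, 4 without a filter, 0 under the CPM minimum of 10 and between 0 and 3 with 1 library left out. With the replicate number as a block, 4 of the 9 genes were higher and 0 lower, and of the listed genes 10 were higher and 0 lower. The labels do not say that these numbers mark a shared batch, and the deviations of libraries 1 of KO and WT correlated at -0.07 over 14427 genes. Over all genes, 1071 were higher and 715 lower, 638 and 370 with the block, 636 and 391 under the CPM minimum, 586 and 285 without KO library 1, 556 and 319 without KO library 2, and 1590 and 1193 without a filter. Depth limits Irf7, Ifih1 and Isg15, which had at most 26 counts in a library.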

Other observations

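The KO libraries differed in several antiviral genes. Of 28 other interferon-stimulated genes tested, 19 were higher in KO library 2 than in KO library 1 (67.9%), against 51.2% of all tested genes. Their median log2 difference was 0.096, against 0.009 over all tested genes. In WT, 15 of the 28 were higher in library 2 than in library 1 (53.6%, against 50.7%). Of the 9 genes, 6 were tested and 3 were higher in KO library 2, as were 5 of 5 JAK-STAT genes. Rsad2, which encodes the antiviral enzyme viperin, had 17 and 43 counts in KO libraries 1 and 2 and 7 and 5 in WT. Lgals3bp had 14 and 39 in KO and 9 and 6 in WT, and Irf2 had 7 and 26 in KO and 1 and 2 in WT. Neither Rsad2 (adjusted p = 0.068) nor Lgals3bp (adjusted p = 0.142) was called in edgeR's quasi-likelihood test, and Irf2 did not pass the filter. These 3 genes were chosen after their values were seen.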
